A study of Mus musculus with 6 samples.

Results

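A group of 9 genes for fat storage and fatty acid uptake was measured in mouse squamous carcinoma cells that differed in the transcription factor Sox2. The genes are Lpl, Cd36, Fabp4, Fabp5, Plin1, Plin2, Pparg, Adipoq and Cfd, chosen by name out of 55385 mouse genes in the count table, and each had 1 row there. The cells are PDVC57, an established squamous carcinoma line of mouse keratinocytes, and the design text describes them as taken out of grafted tumours as Sox2-low and Sox2-high cells. One group carried the genotype Sox2 KO (3 libraries) and the other Sox2 overexpression (3 libraries). All libraries are from the same line, and no group with unaltered Sox2 was part of the comparison. Whether a group came from 1 clone, how Sox2 was removed or supplied, and how many tumours or mice gave the libraries are not given in the sources used here, so the p-values measure the spread between these libraries, which may be technical. The design text gives the aim as finding how Sox2-driven programmes of tumour stem cells act on neutrophils.

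Fatty acids reach a cell largely from triglyceride carried in lipoproteins. Lipoprotein lipase, made by adipocytes and other parenchymal or stromal cells, releases them at the vessel wall, CD36 helps to take them up, and small binding proteins of the FABP family carry them inside the cell. They are stored in droplets coated by perilipins, and the nuclear receptor PPARγ drives the adipocyte programme, whose secreted products include adiponectin and complement factor D. In skin, FABP5 is the epidermal form of the binding protein and FABP4 the form of adipocytes and capillary endothelium.

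Of the 9 genes, 7 passed the filter on low counts and 4 of those 7 had an adjusted p under 0.05. Lpl, Fabp4 and Pparg were lower with Sox2 overexpression and Cd36 was higher. Fabp5, Plin2 and Plin1 did not pass the threshold, and Adipoq and Cfd were too low to be tested. Across all 18504 tested genes, 31.6% passed the threshold, 18.0% as lower and 13.6% as higher with overexpression. For 5 of the 7 tested genes the ranges of both groups were separate, as they were for 50.9% of all tested genes. Fold changes are overexpression over knockout on the log2 scale, from the quasi-likelihood test of edgeR fitted on all genes, with Benjamini-Hochberg adjustment, and levels are CPM, counts in relation to the TMM-scaled library size.

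Depth and identity of the libraries were as follows. Total counts lay between 31247976 and 38543221, and 3 counts, the limit that a count of 0 allows, corresponded to 0.0759 to 0.101 CPM. Such limits cover counting error only. Sox2 itself had 25 to 49 counts in the knockout libraries and 2566 to 4095 in the overexpression libraries, as the labels say. Keratinocyte markers were present in both groups, with summed levels of 8301 to 13010 CPM over 33 genes in knockout libraries and 22510 to 27970 CPM in overexpression libraries. Fibroblast markers summed to 53040 to 81040 CPM over 10 genes in knockout libraries and to 245 to 387 CPM in overexpression libraries. In bulk RNA, fewer cells of a type and less RNA per cell cannot be told apart.

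The sequences below show how distinct the 2 binding protein genes are at the level of RNA, since a level for each depends on reads being told apart. The coding sequences of Fabp4 (399 bases) and Fabp5 (408 bases) in GENCODE M21 were identical at 245 of 408 aligned positions (60%). The stretch shown covers bases 14 to 133 of the Fabp4 coding sequence and bases 20 to 139 of the Fabp5 coding sequence, counted from the A of the start codon. Capitals mark the 47 of 120 positions at which they differ.
Fabp4: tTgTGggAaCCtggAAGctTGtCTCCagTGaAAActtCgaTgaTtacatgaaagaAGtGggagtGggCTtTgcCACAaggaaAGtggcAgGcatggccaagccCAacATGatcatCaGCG
Fabp5: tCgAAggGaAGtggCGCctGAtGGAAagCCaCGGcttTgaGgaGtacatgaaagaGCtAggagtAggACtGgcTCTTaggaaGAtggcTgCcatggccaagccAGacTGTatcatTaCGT

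Near-identical copies were searched for among all GENCODE M21 transcripts, with at least 90% identity over at least 200 bases. Fabp5 had 5 processed pseudogenes of this kind and Plin2 had 1 pseudogene, Gm12551. None of these copies had more than 3 counts in any library, so few reads had been assigned to them, although reads of a copy could have been counted for the parent gene. The other 7 genes had no copy at this cutoff, and no other annotated gene shared exon bases with any of the 9.

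Promoter sequences from RefSeq (GRCm38.p6) were matched for 6 of the 9 genes, and Fabp4, Fabp5 and Lpl had no entry. The promoter of Cd36 is shown because Cd36 was the gene that rose, and the window before the most downstream of the 3 annotated Pparg starts because Pparg fell. Each runs 250 bases up to a start annotated in RefSeq, on the strand of the gene, and lies inside the span of its gene without touching an annotated exon. Motifs were searched on both strands as the PPAR response element (AGGTCA repeated in the same direction after 1 base), AGGTCA alone (1 arm of it, which overlaps it), ACAAAG and ACAATG (core letters bound by SOX factors), TGANTCA (AP-1), TATAAA and GGGCGG. Matches are in capitals.
Cd36, chr5:17835897-17836146, minus strand: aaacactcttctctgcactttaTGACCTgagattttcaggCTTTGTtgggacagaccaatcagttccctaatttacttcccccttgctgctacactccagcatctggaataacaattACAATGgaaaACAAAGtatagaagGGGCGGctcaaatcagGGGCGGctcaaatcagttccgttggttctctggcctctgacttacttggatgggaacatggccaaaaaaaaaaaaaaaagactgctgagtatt
Pparg, chr6:115421816-115422065, plus strand: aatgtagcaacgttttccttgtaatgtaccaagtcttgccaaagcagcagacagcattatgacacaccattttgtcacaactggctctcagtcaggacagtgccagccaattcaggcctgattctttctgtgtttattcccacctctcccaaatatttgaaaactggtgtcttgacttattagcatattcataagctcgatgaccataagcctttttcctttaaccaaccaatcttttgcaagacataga

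The Cd36 window held ACAAAG at 118 to 123 bases before the start and, on the other strand, at 205 to 210 bases. It also held ACAATG at 128 to 133 bases, 1 AGGTCA arm and 2 GGGCGG boxes. Over 32851 mouse promoter windows of the same length, 16.5% held ACAAAG, 10.7% held ACAATG, 14% held AGGTCA and 32.7% held GGGCGG. The whole PPAR response element stood in 0.0335% of them. The Pparg window shown held none of the letters searched. The windows of the other 2 Pparg starts, not shown because they overlap annotated exons, each held 1 AGGTCA arm, with 1 GGGCGG box in the first and 2 GGGCGG boxes and 1 TATAAA in the second. A match is a run of letters and not a measured binding site, and no binding was measured here.

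Lpl encodes lipoprotein lipase and lies on chromosome 8 (68880491 to 68907448, plus strand, GRCm38, as are all positions here). It was the gene with the largest difference of the 7 tested. Its counts were 1339, 3510 and 5731 in knockout replicates 1, 2 and 3, against 39, 30 and 51 in overexpression replicates 1, 2 and 3. Every knockout library lay far above every overexpression library, and knockout replicate 1 was the lowest of its group. In CPM it averaged 104 ± 59.8 with knockout against 1.17 ± 0.139 with overexpression (SD, n = 3 each), or 88.7-fold lower. The log2 fold change was -6.47 ± 0.54 (SE; edgeR, adjusted p = 3.77e-05). It passed the threshold under each alternative tried, with log2 fold changes between -7.8 and -6.04.

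Cd36 encodes a scavenger receptor that takes up long-chain fatty acids and oxidised lipoproteins (chromosome 5, 17781690 to 17888801, minus strand). It was the gene that rose, from a very low level. Its counts were 7, 14 and 18 in the knockout libraries and 105, 30 and 46 in the overexpression libraries, in replicate order. The groups did not overlap, and overexpression replicate 1 stood well above the others. Levels were 0.387 ± 0.158 CPM with knockout and 1.79 ± 1.22 CPM with overexpression (SD, n = 3 each), and the log2 fold change was 2.20 ± 0.58 (SE; edgeR, adjusted p = 0.0202). The call was lost without knockout replicate 1 (log2 fold change 1.91, adjusted p = 0.0546), knockout replicate 2 (2.35, adjusted p = 0.0522) or overexpression replicate 1 (1.51, adjusted p = 0.0776). The mean with overexpression was 1.09 CPM without replicate 1. Scaling to keratinocyte genes left a log2 fold change of 0.98 for Cd36 (adjusted p = 0.171). Over all alternatives its adjusted p lay between 0.00194 and 0.171.

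Fabp4 and Fabp5 lie near each other on chromosome 3, Fabp4 at 10204088 to 10208576 on the minus strand and Fabp5 at 10012548 to 10016607 on the plus strand. Fabp4 fell and Fabp5 did not pass the threshold. Fabp4 had 97, 93 and 212 counts in the knockout libraries and 0, 9 and 5 in the overexpression libraries. All knockout libraries were higher, with replicate 3 the highest. The means were 3.91 ± 1.65 and 0.144 ± 0.153 CPM (SD, n = 3 each), and the log2 fold change was -4.77 ± 0.78 (SE; edgeR, adjusted p = 0.00192). The size of this fall rests on few overexpression counts: it was -5.77 without overexpression replicate 2 and -4.18 without overexpression replicate 1, and the call stood in both.

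Fabp5 was far more abundant than Fabp4. Its counts were 801, 1152 and 1555 with knockout and 1278, 2217 and 1902 with overexpression, and the groups overlapped in CPM. Levels were 34.7 ± 10.0 and 54.0 ± 18.7 CPM (SD, n = 3 each), and the log2 fold change was 0.64 ± 0.29 (SE; edgeR, adjusted p = 0.129). The adjusted p was 0.0261 with no filter on low counts, and over all alternatives it lay between 0.0261 and 0.353. When libraries were scaled to keratinocyte genes, which lowers all genes by a similar amount, the log2 fold change of Fabp5 was -0.67.

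A share within the family needs no scaling between libraries. Fabp4 made up 10.6%, 7.33% and 11.9% of the counts of the 9 Fabp genes in knockout replicates 1, 2 and 3 (exact Clopper-Pearson 95% intervals 8.65% to 12.7%, 5.96% to 8.9% and 10.4% to 13.5%). In overexpression replicates 2 and 3 it made up 0.404% and 0.26%, and in replicate 1 it had 0 of 1287 counts, which allows a share of up to 0.233% by the limit of 3 counts and 0.286% by the exact interval. The mean share was 9.93 ± 2.35% with knockout and 0.221 ± 0.205% with overexpression (SD, n = 3 each; two-sided exact permutation test, p = 0.1, the smallest that 3 against 3 allows). Fabp5 made up nearly all of the rest, at 88.5 ± 2.02% and 99.3 ± 0.225% (SD, n = 3 each).

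**Figure D1:**
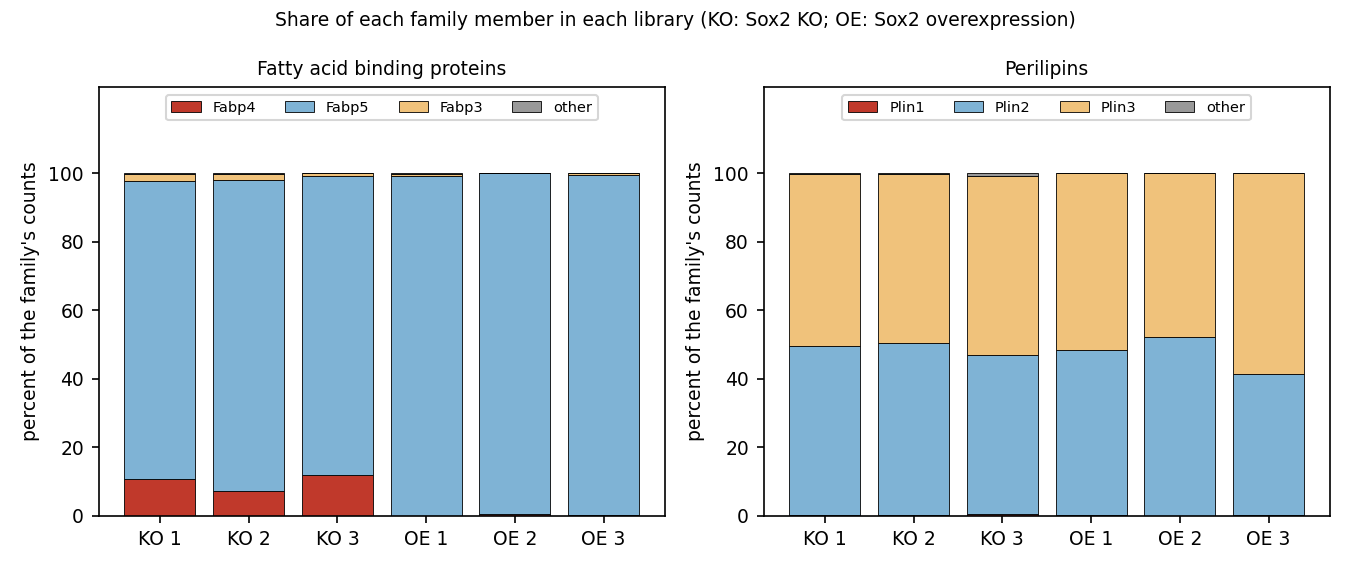
Percent of the summed counts of 9 Fabp genes (left) and 5 perilipin genes (right) taken by each gene in each library; bars are single libraries, KO is Sox2 KO and OE is Sox2 overexpression. The Fabp4 segment is 7.33% to 11.9% in the knockout libraries and at most 0.404% in the overexpression libraries, while Plin2 and Plin3 divide the perilipin counts in all 6.

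Plin1 coats the large droplets of adipocytes, and Plin2 coats droplets in most cell types. Neither passed the threshold. Plin1 (chromosome 7, 79720218 to 79732903, minus strand) had 11, 17 and 43 counts with knockout and 9, 6 and 12 with overexpression. The groups did not overlap in CPM, though knockout replicate 1 was close to the overexpression libraries. Its means were 0.688 ± 0.442 and 0.26 ± 0.0518 CPM (SD, n = 3 each), and the log2 fold change was -1.39 ± 0.57 (SE; edgeR, adjusted p = 0.0975). Leaving out knockout replicate 3 took the knockout mean of Plin1 to 0.442 CPM and its log2 fold change to -0.73. Scaling to keratinocyte genes gave -2.71 with an adjusted p of 0.00317, and over all alternatives the adjusted p of Plin1 lay between 0.00317 and 0.351.

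Plin2 (chromosome 4, 86648386 to 86670060, minus strand) was the most abundant of the 9 genes per length of transcript in both groups. Its counts were 4211, 3709 and 4143 with knockout and 4702, 7666 and 4736 with overexpression. The knockout libraries lay close together, and overexpression replicate 2 stood above all others while replicate 3 was within the knockout range in CPM. Means were 120 ± 5.49 and 174 ± 74.7 CPM (SD, n = 3 each), and the log2 fold change was 0.54 ± 0.27 (SE; edgeR, adjusted p = 0.162). It was 0.15 without overexpression replicate 2. The direction turned under scaling to keratinocyte genes (log2 fold change -0.71, adjusted p = 0.033), and over all alternatives the adjusted p lay between 0.033 and 0.357.

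Within the perilipin family, Plin2 took 48.7 ± 2.02% of counts with knockout and 47.2 ± 5.5% with overexpression (SD, n = 3 each; two-sided exact permutation test, p = 0.8). Plin3, a perilipin found in many tissues and named here after its values were seen, took 50.6 ± 1.62% and 52.6 ± 5.45% (SD, n = 3 each; exact permutation test, p = 0.8). The Plin1 share was at most 0.481% in any library. For the Plin1 share, 0.28 ± 0.181% and 0.0793 ± 0.0339% (SD, n = 3 each), the exact permutation p was 0.1, and 5 family shares were tested in all, so none could pass before or after correction.

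Pparg encodes PPARγ, the nuclear receptor that drives adipocyte differentiation (chromosome 6, 115360951 to 115490399, plus strand). It was low everywhere and lower with overexpression. Its counts were 11, 25 and 26 with knockout and 1, 3 and 1 with overexpression, so no overexpression library was above 3 counts and the groups did not overlap. The means were 0.621 ± 0.264 and 0.0524 ± 0.0426 CPM (SD, n = 3 each), and the test gave an adjusted p of 0.00524 (edgeR). The ratio of summed counts, adjusted for depth, was 12.5-fold lower with overexpression, with an exact counting interval of 5.09 to 39.9 that leaves out the spread between libraries. The fitted log2 fold change was -3.54, and -4.29 without overexpression replicate 2, and the call stood under each alternative tried.

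Adipoq (adiponectin, chromosome 16, 23146536 to 23158028, plus strand) and Cfd (complement factor D, or adipsin, chromosome 10, 79890853 to 79892655, plus strand) are secreted by mature adipocytes. Adipoq had 0 counts in each knockout library and 1, 2 and 1 counts in the overexpression libraries. Cfd had 0, 6 and 2 counts with knockout and 0, 0 and 2 with overexpression. Adipoq stood within the 3-count limit in all 6 libraries, and no fold is given for it. For Cfd, only knockout replicate 2 was above that limit, the summed counts had a ratio of 4.04 (exact counting interval 0.806 to 39.1), and a difference was not detectable at this depth.

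**Figure D2:**
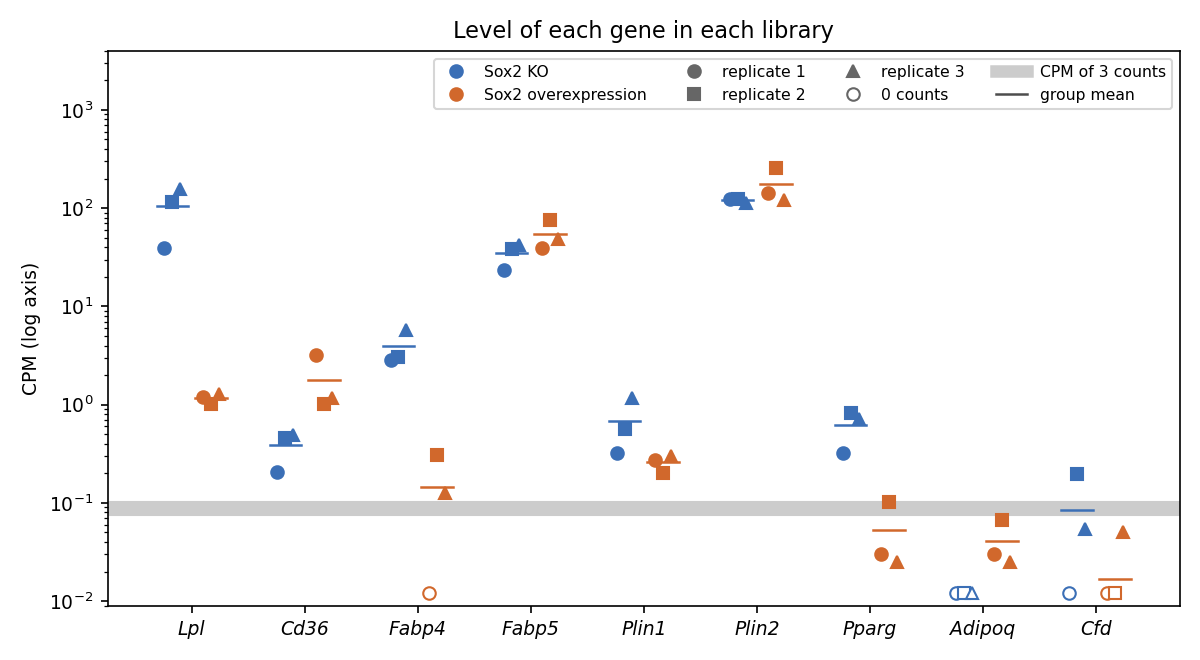
CPM on a log axis for the 9 genes in each library, with blue for Sox2 KO, orange for Sox2 overexpression, 1 symbol shape per replicate number, short lines for group means, a grey band for the CPM of 3 counts and open symbols on the lower edge for 0 counts. Lpl, Fabp4 and Pparg separate with knockout above, Cd36 separates with overexpression above, and Adipoq lies below the band in all libraries.

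Between genes, levels are compared as CPM per kilobase of the longest coding transcript. In the knockout libraries the order was Plin2 (63.5 ± 2.91), Fabp5 (35.2 ± 10.1), Lpl (25.3 ± 14.5) and Fabp4 (4.36 ± 1.84), followed by Pparg, Plin1, Cd36, Cfd and Adipoq, all under 0.3 (SD, n = 3 each). The library ranges of Fabp5 and Lpl overlapped, as did those of each pair of neighbours from Pparg downward. In the overexpression libraries Plin2 (92.3 ± 39.5) and Fabp5 (54.8 ± 19.0) led with overlapping ranges. All other genes were below 1, with Cd36 (0.528 ± 0.36), Lpl (0.283 ± 0.0339) and Fabp4 (0.16 ± 0.171) next and overlapping in turn (SD, n = 3 each). The third place was thus taken by Lpl in knockout libraries and by Cd36 in overexpression libraries.

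Cell type markers were read beside these levels. Counts of called markers stand against all tested genes, of which 31.6% passed the threshold, 18.0% as lower and 13.6% as higher. Of 20 adipocyte markers, which include Adipoq, Cfd and Plin1, 6 passed the count filter and 1, Lipe, was called, as higher with overexpression. Adipoq, Lep and Cidec, which define mature adipocytes, had at most 3 counts in every library, so the libraries with more Lpl and Fabp4 had no measurable level of these markers. Other low genes of the list that failed the filter differed from this. Plin4 had 10, 22 and 63 counts with knockout and 1, 1 and 2 with overexpression, whereas Adig had 5, 0 and 0 and 3, 2 and 5. Both were named after their values were seen, and Car3 and Slc36a2 are given with Plin4 under the other observations. The summed adipocyte list was 18.8 to 28 CPM with knockout and 34.5 to 43.9 CPM with overexpression, and Lipe was its most abundant gene. Without Lipe the remaining 19 genes summed to 10 to 16 CPM with knockout and 10.7 to 13.5 CPM with overexpression. Much of this remainder was Lgals12, named after its values were seen, which did not pass (adjusted p = 0.418, edgeR). It stood at 8.76, 3.18 and 4.39 CPM with knockout and at 9.34, 6.39 and 6.37 CPM with overexpression, so these sums say little about the other markers. At most 3 counts in every library of a group were found for 3 of the 20 genes with knockout and for 9 with overexpression.

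Fibroblast, endothelial and white blood cell markers were lower in sum with overexpression, as Lpl, Fabp4 and Pparg were. Mural markers were lower in sum too, at 317 to 446 CPM with knockout and 111 to 177 CPM with overexpression. Keratinocyte markers were higher in sum, and the macrophage and sebocyte sums overlapped between the groups, as given below. The adipose progenitor sums also overlapped, at 1275 to 2867 CPM with knockout and 974 to 1582 CPM with overexpression. With overexpression they were mostly Ly6a (1192 ± 322 CPM, SD, n = 3). All 10 fibroblast markers were lower with overexpression, and the most abundant of them, Col3a1 (collagen III), had a log2 fold change of -8.22. Of 9 tested endothelial markers 8 were lower, and the summed list was 43.8, 64.3 and 139 CPM in knockout replicates 1, 2 and 3 and 14.4 to 21 CPM with overexpression. The marker that did not pass was Tek, the angiopoietin receptor and the most abundant of the list over both groups, at 9.67, 24.7 and 34.4 CPM with knockout and 16.9, 9.34 and 15.1 CPM with overexpression. Its groups overlapped (log2 fold change -0.74, adjusted p = 0.216), it made up most of the overexpression sum, and it passed without knockout replicate 1 (-1.09, adjusted p = 0.0233) and under scaling to keratinocyte genes (-2.05, adjusted p = 0.00223). The 10 white blood cell markers summed to 35.1, 69.7 and 283 CPM in the same knockout libraries and to 2.35 to 4.46 CPM with overexpression, with Ptprc (CD45) the highest of them over both groups together. Knockout replicate 3, the library with the most Lpl, Fabp4 and Plin1, was also the highest for endothelial and white blood cell markers. The summed fibroblast markers (81040 against 76240 CPM) and adipose progenitor markers (2867 against 2441 CPM) were higher in knockout replicate 2 than in replicate 3. Pparg was at 0.827 and 0.713 CPM in these 2 libraries, on 25 and 26 counts, too close to order them. Knockout replicate 1 was the lowest of its group in CPM for Lpl, Fabp4, Plin1 and Pparg. It was also the lowest for the fibroblast, endothelial, white blood cell and adipose progenitor sums. The mural and adipocyte sums were lowest in knockout replicate 2, and Plin2 and the keratinocyte sum in replicate 3.

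Among 10 markers of adipose progenitor cells, which fibroblasts share in part, 8 were lower and 1, Ly6a (Sca-1), was higher with overexpression. Ly6a, the most abundant of this list over both groups together, reversed under scaling to keratinocyte genes (log2 fold change 0.91 to -0.31), and its call was lost without knockout replicate 1 (adjusted p = 0.069) or 3 (adjusted p = 0.059). Mural markers were lower for 7 of 9 genes and higher for 1, with Acta2 (smooth muscle actin), the most abundant over both groups together, at a log2 fold change of -2.30. Macrophage markers summed to 21.1 to 29.8 CPM and 17.4 to 30.2 CPM in the 2 groups, with 3 of 8 tested genes lower. These 37.5% called were near the 31.6% of all tested genes. The most abundant of them, Csf1r, had a log2 fold change of 0.86 that did not pass (adjusted p = 0.103), and did pass without overexpression replicate 3 (1.19, adjusted p = 0.0177). Sebocyte markers, of which Plin2 is the most abundant, summed to 249 to 276 CPM and 206 to 348 CPM, with 2 of 7 tested genes lower (28.6% called, also near the share of all tested genes). Of 33 keratinocyte markers 24 were higher and 0 lower with TMM scaling. Krt8 was the most abundant (log2 fold change 0.93, and -0.31 under scaling to keratinocyte genes, which by construction takes the median of its own list as no change), and its call was lost without knockout replicate 2 (adjusted p = 0.0845) or 3 (adjusted p = 0.0772). The part that these cell types have in the levels of Lpl, Fabp4, Pparg and Plin1 was not tested.

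**Figure D3:**
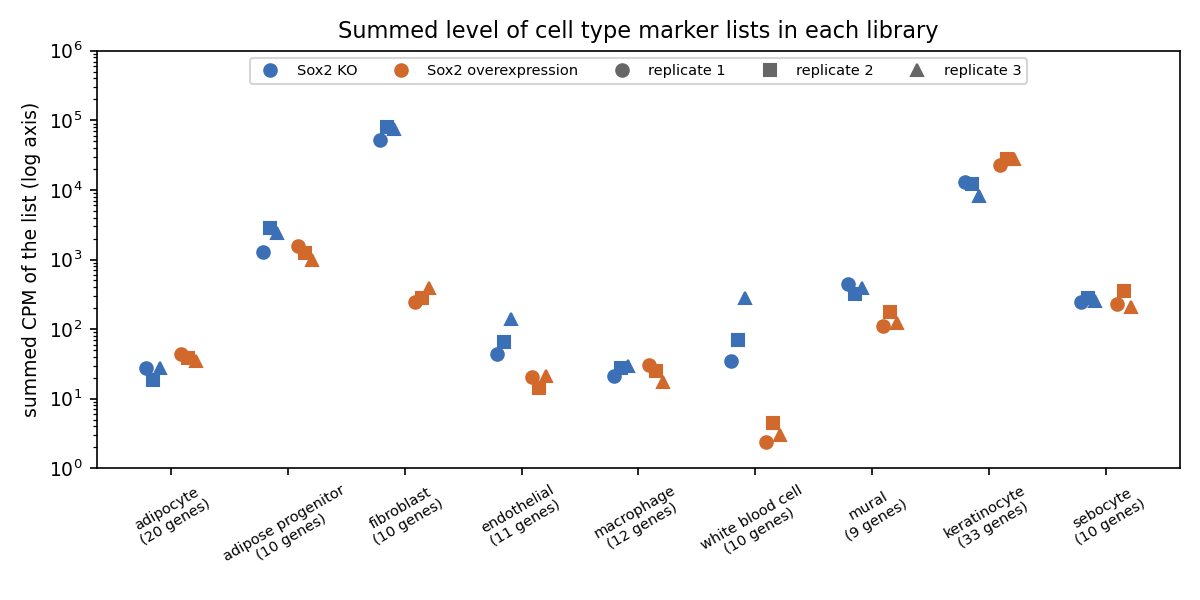
Summed CPM on a log axis of 9 marker lists in each library, blue for Sox2 KO and orange for Sox2 overexpression, with 1 symbol shape per replicate number. Fibroblast markers reach 53040 to 81040 CPM in knockout libraries and 245 to 387 CPM in overexpression libraries, whereas the adipocyte list is between 18.8 and 43.9 CPM in all 6.

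Genes that share a pathway with the 9 were examined as 6 lists, counted here without the 9 genes. A list is described by its counts and its median log2 fold change, beside a median of -0.02 over all tested genes, of which 18.0% were lower and 13.6% higher past the threshold. When libraries were scaled to keratinocyte genes the median of all genes was -1.25, so that a rise smaller than this shift turns to a fall by construction. Reads over Lipe and an antisense gene that shares 15.6% of its exon bases, and smaller overlaps at Cpt1c, Ebf2, Bscl2, Agpat2, Cd55, Pcsk6 and Srebf1, may have been split between partners, since the strand setting of the counting is not given in the sources used here.

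Genes for fatty acid uptake and binding did not move in 1 direction. Of 28 genes 20 were tested, 6 were lower and 2 higher past the threshold, and 12 did not pass (40% called, against 31.6% of all genes). The median was 0.17. The lower genes with the smallest p were Crabp1, a cellular retinoic acid binding protein (76.0 ± 40.5 to 1.91 ± 1.33 CPM, SD, n = 3 each, log2 fold change -5.28), Slc27a3, a fatty acid transport protein (log2 fold change -1.82), and Rbp4, the plasma retinol carrier. Rbp4 had at most 2 counts in an overexpression library, a ratio of summed counts of 48.8 (exact counting interval 16.4 to 239). Slc27a4, a fatty acid transport protein of epidermis, was higher (46.9 ± 2.85 to 86.1 ± 18.8 CPM, SD, n = 3 each, log2 fold change 0.87, adjusted p = 0.00598, edgeR). Cav1, caveolin, was the other higher gene (log2 fold change 0.92, adjusted p = 0.0147, edgeR), and its call was lost without knockout replicate 2 (adjusted p = 0.0557) or 3 (adjusted p = 0.0529). Slc27a4 and Cav1 turned to -0.37 and -0.32 under scaling to keratinocyte genes. The fitted fall of Crabp1 was -6.02 without overexpression replicate 3, and that of Rbp4 was -6.26 and -4.77 without overexpression replicates 1 and 3.

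Genes that act with lipoprotein lipase on lipoproteins and their remnants included large falls and smaller rises. Of 19 genes 12 were tested, 6 were lower and 2 higher (66.7% called, against 31.6% of all genes), with a median of -0.68. Vldlr, a receptor for triglyceride-rich lipoproteins, fell from 8.55 ± 3.61 to 0.182 ± 0.0462 CPM (SD, n = 3 each, log2 fold change -5.51). Lrp1, a remnant receptor, fell from 1411 ± 331 to 273 ± 75.6 CPM (SD, n = 3 each, log2 fold change -2.37), and the ligand Apoe had a log2 fold change of -3.66. Pcsk6, a proprotein convertase, rose from 93.0 ± 20.4 to 273 ± 30.1 CPM (SD, n = 3 each, log2 fold change 1.55, adjusted p = 0.000455, edgeR). Sdc4, a heparan sulphate proteoglycan, rose by a log2 fold change of 0.84, which turned to -0.39 under scaling to keratinocyte genes. That of Pcsk6 was 0.28 (adjusted p = 0.33) there. Gpihbp1, the capillary protein that anchors lipoprotein lipase, was not tested; it had 1, 7 and 15 counts with knockout and 0, 1 and 0 with overexpression (named after its values were seen).

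Lipid droplet and triglyceride genes went in both directions, and the share called was near that of all tested genes (34.8% against 31.6%). Of 32 genes 23 were tested, 4 were lower, 4 higher and 15 did not pass, with a median of 0.13. Hsd17b11, a dehydrogenase on the droplet surface, fell from 18.5 ± 6.89 to 0.0946 ± 0.0609 CPM (SD, n = 3 each, log2 fold change -7.52). G0s2, an inhibitor of adipose triglyceride lipase, had 35, 51 and 214 counts with knockout and at most 3 with overexpression, a ratio of summed counts of 75.8 (exact counting interval 29.3 to 280). Its fitted log2 fold change of -6.04 was -4.96 without knockout replicate 3, -7.26 without overexpression replicate 1 and -5.39 without overexpression replicate 3. Bscl2, seipin, fell by 1.13 on the log2 scale. The higher genes with the smallest p were both main lipases of stored fat and an acyltransferase: Lipe, hormone-sensitive lipase (10.9 ± 1.83 to 27.1 ± 3.62 CPM, SD, n = 3 each, log2 fold change 1.32, adjusted p = 0.00111, edgeR), Pnpla2, adipose triglyceride lipase (log2 fold change 0.86), and Agpat2 (log2 fold change 0.77). Under scaling to keratinocyte genes Pnpla2 and Agpat2 turned to -0.38 and -0.48 and Lipe was at 0.08 (adjusted p = 0.815). The Agpat2 call was lost without knockout replicate 1 (adjusted p = 0.07), 2 (adjusted p = 0.0831) or 3 (adjusted p = 0.0957).

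Among regulators of adipogenesis 12 genes were lower and 3 higher. Of 31 genes 29 were tested and 14 did not pass (51.7% called), with a median of -0.14. Ebf1 fell from 49.1 ± 19.8 to 0.707 ± 0.222 CPM (SD, n = 3 each, log2 fold change -6.10) and Zfp423, a factor of preadipocytes, from 6.81 ± 3.08 to 0.132 ± 0.0574 CPM (SD, n = 3 each, log2 fold change -5.61). Ebf2 had 295 to 994 counts with knockout and 1 count in all with overexpression, a ratio of summed counts of 1745 (exact counting interval 313 to 68940). Its fitted value of -10.27 was -12.18 without overexpression replicate 2. Klf5, Srebf1 and Rxra rose by log2 fold changes of 1.10, 0.99 and 0.48. All 3 turned under scaling to keratinocyte genes, to -0.10, -0.25 and -0.76. Rxra encodes the partner with which PPARγ binds DNA, and its call was lost without knockout replicate 1 (adjusted p = 0.0691), 2 (adjusted p = 0.119) or 3 (adjusted p = 0.117) and without overexpression replicate 3 (adjusted p = 0.0634). Cebpa, which sustains Pparg in adipocytes, was at 18.9 ± 2.01 and 17.1 ± 3.76 CPM (SD, n = 3 each, adjusted p = 0.617, edgeR), and was named after its values were seen.

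Although Adipoq and Cfd were barely detected, genes on which their products act were present. Of 15 genes of the adiponectin and factor D axis 13 were tested, 5 were lower and 4 higher (69.2% called), with a median of -0.55. The adiponectin receptors Adipor1 (131 ± 9.35 to 224 ± 36.2 CPM) and Adipor2 (96.8 ± 10.3 to 187 ± 6.37 CPM, SD, n = 3 each) rose by log2 fold changes of 0.78 and 0.95, with adjusted p of 0.00688 and 0.00121 (edgeR). Cdh13, T-cadherin, which binds adiponectin, had a log2 fold change of 1.14, and its call was lost without overexpression replicate 2 (adjusted p = 0.056) or 3 (adjusted p = 0.054). These 3 rises turned to -0.46, -0.30 and -0.05 under scaling to keratinocyte genes. Cfb, the substrate of factor D, fell from 263 ± 165 to 6.57 ± 3.14 CPM (SD, n = 3 each, log2 fold change -5.33) and C3, the central complement protein, from 3920 ± 2649 to 20.6 ± 9.82 CPM (SD, n = 3 each, log2 fold change -7.57). Cd55, which speeds the decay of complement convertases, had a log2 fold change of -8.78, and -9.89 without overexpression replicate 3.

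Fatty acid oxidation genes, all 29 of which were tested, also went in both directions. Of them 7 were higher, 6 lower and 16 did not pass (44.8% called, against 31.6% of all genes), with a median of 0.11. Acadl (143 ± 11.7 to 288 ± 44.5 CPM, SD, n = 3 each), Eci1 and Acadm, which encode mitochondrial dehydrogenases and an isomerase of the pathway, rose by log2 fold changes of 1.02, 1.12 and 0.61. They turned to -0.20, -0.12 and -0.62 under scaling to keratinocyte genes, and the Acadm call was lost without knockout replicate 2 (adjusted p = 0.0535) or 3 (adjusted p = 0.0558). Decr1, a reductase needed for unsaturated fatty acids, had 245, 350 and 412 counts with knockout and 1, 0 and 2 with overexpression, a ratio of summed counts of 339 (exact counting interval 116 to 1647). Its fitted log2 fold change of -8.25 was -8.97 without overexpression replicate 3. Ehhadh, a peroxisomal enzyme, had at most 2 counts with overexpression, a ratio of 30.9 (exact counting interval 13 to 96.6). Cpt1c, the carnitine palmitoyltransferase form known from brain, fell from 22.4 ± 6.03 to 0.412 ± 0.113 CPM (SD, n = 3 each, log2 fold change -5.77).

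The lower genes of these lists were higher in the knockout group, which also held the high fibroblast, endothelial and white blood cell markers given above. Within that group, replicate 1 had the lowest CPM for each lower gene named from these lists except Crabp1. The fibroblast, endothelial and white blood cell sums were lowest in that library too. Crabp1 was the exception, at 115, 78.8 and 34.2 CPM in knockout replicates 1, 2 and 3, over which the endothelial and white blood cell sums rose. The part of those cells in the falls was not tested.

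**Figure D4:**
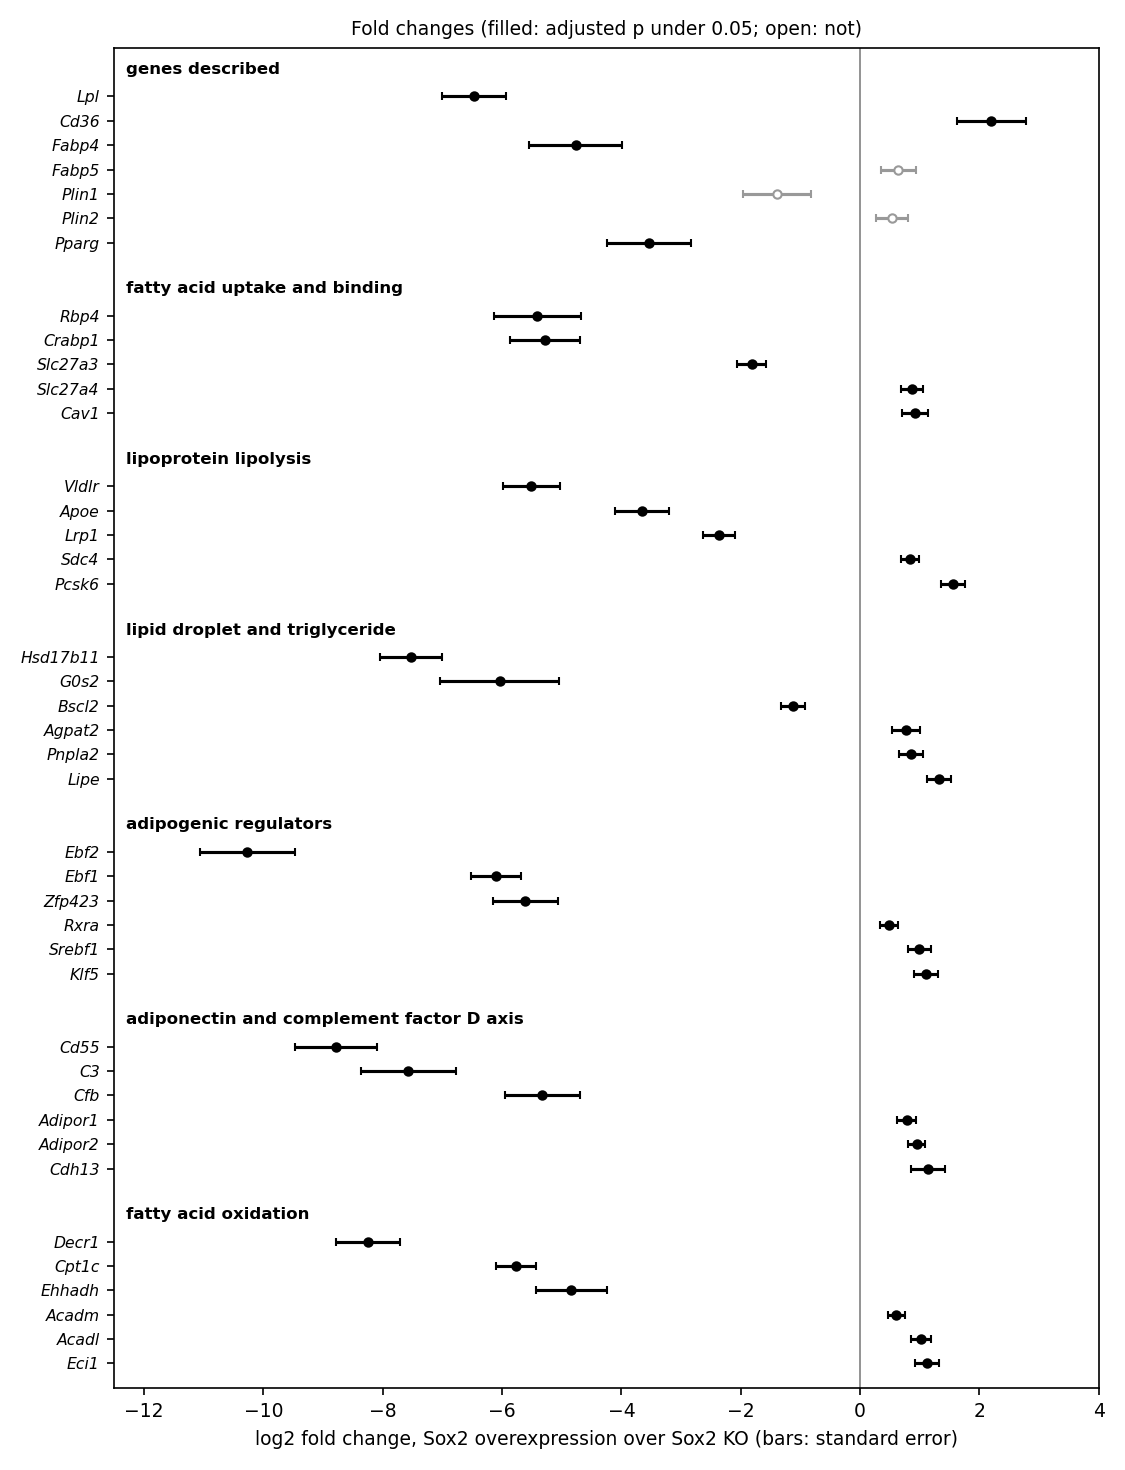
Log2 fold change, Sox2 overexpression over Sox2 KO, with its standard error (edgeR, 6 libraries), for the 7 tested genes at the top and for up to 3 lower and 3 higher genes of each pathway list; filled points have an adjusted p under 0.05, and open points do not. Falls reach further than rises, and for Pparg, Rbp4, G0s2, Ebf2, Decr1 and Ehhadh the fitted size rests on at most 3 counts in each overexpression library.

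Genes with the most similar pattern over the 6 libraries were listed for each tested gene by Pearson's r of log2 CPM, over about 12140 genes, as a description that is dominated by the difference between the groups. For Lpl, 293 genes had r over 0.99, led by Lmo2, Phf24 and Il16 (r = 0.999 each). Fabp4 was most like Gng2, Tnnt3 and Fndc4 (r = 0.997, 0.997 and 0.996) and Pparg most like Lpar4, Arap1 and Dpp7 (r = 0.997, 0.997 and 0.996). For Cd36 the closest were Nt5c3, Il18r1 and Tmem260 (r = 0.991, 0.99 and 0.989), for Fabp5 Hibadh, Ap5s1 and Cand2 (r = 0.994, 0.988 and 0.984), and for Plin2 they included B3gat3 and Sec22a (r = 0.996 and 0.992). Plin1 was closest to Zfp984, Sema6d and Olfr635 (r = 0.993, 0.988 and 0.988).

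**Figure D5:**
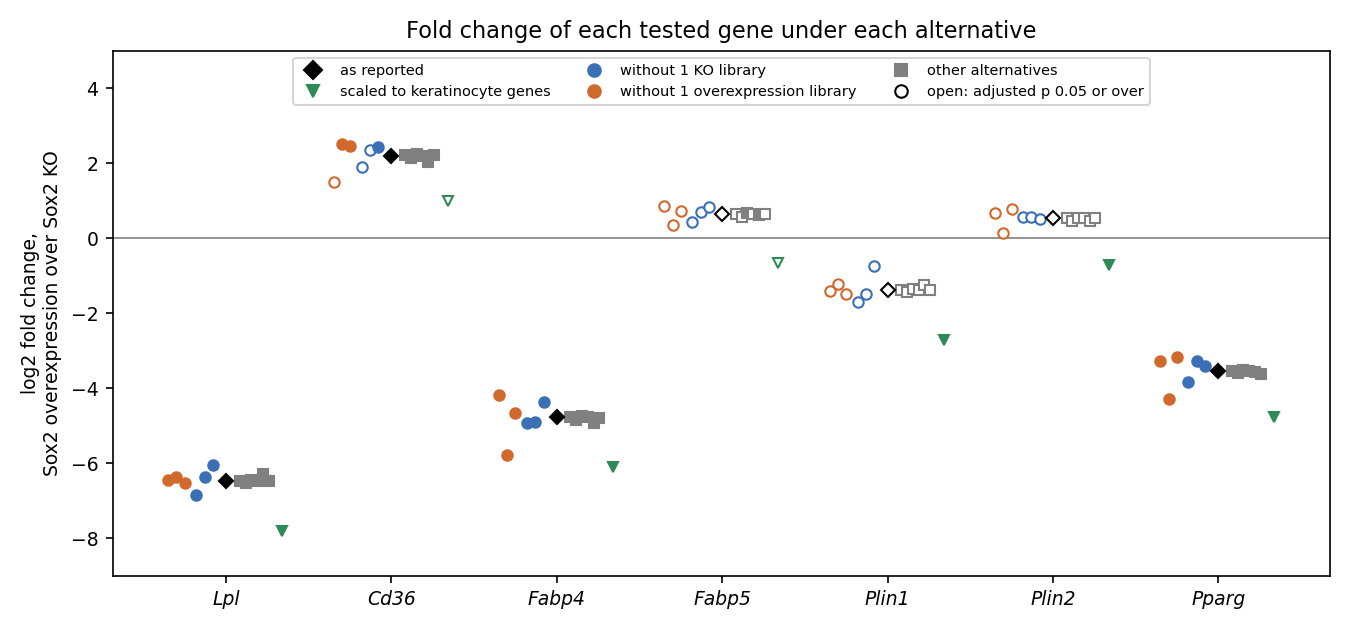
Log2 fold change of each tested gene as reported (black diamond), with 1 library left out (blue and orange circles), with libraries scaled to keratinocyte genes (green triangle) and under the other alternatives (grey squares); open symbols have an adjusted p of 0.05 or over. Lpl, Fabp4 and Pparg stay below 0 and filled throughout, Cd36 opens under 4 alternatives, and Fabp5 and Plin2 fall below 0 with the keratinocyte scaling.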

How the data were processed

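RNA of 6 PDVC57 libraries was sequenced, 3 of Sox2 KO and 3 of Sox2 overexpression cells. Per the labels' protocols, RNA came from a column kit for small samples and libraries from a low input kit. The submitters' processing notes name kallisto 0.44.0 and mm10, without saying how the table was made from them; the annotation and strand setting are not given in the sources used here. The deposited values are raw counts per gene, whole numbers that the authors did not normalize, and mm10 is the build of GENCODE M21 (GRCm38), used for positions and symbols (55144 of 55385 gene IDs matched). Another 96 rows, spike-in and construct sequences with at most 2.23e-05% of counts, were left out.

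Low genes were removed by filterByExpr (at least 10 counts, 15 in total), libraries scaled by TMM, and the groups compared by quasi-likelihood tests (edgeR 4.0.16, R 4.3.3), with the group as the only term, all 6 libraries in 1 fit and a Benjamini-Hochberg threshold of 0.05. The standard error is the log2 fold change divided by the square root of F. Total counts were 31247976 to 38543221 per library. Where a group had at most 3 counts in each library, the ratio of summed counts is given with an exact 95% interval.

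The alternatives were DESeq2 1.42.0, its size factors in edgeR, upper-quartile normalization, scaling to the median ratio of 33 keratinocyte genes, no filter, a robust fit of the dispersion, a block for the replicate number and leaving out each library. The code was tested on simulated data first. There, 14 of 91 genes with a 2-fold change and 74 of 105 with a 4-fold change were called in the right direction. Of 98 calls in all, 10 were false. Only these changed genes out of 18030 differed in the simulation, whereas 31.6% of tested genes were called in the real data. The Benjamini-Hochberg cutoff was thus stricter in the simulation, and its rates do not carry over to the real fit. A gene that did not pass may still differ. Copies were searched with blastn 2.17.0.

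The 9 genes, the lists and the alternatives were chosen with earlier results of these data known. The genes named are the 9, Sox2, up to 3 lower and 3 higher genes with the smallest p past the threshold in each pathway list, the most abundant marker of each list (by the mean of both group means) and the 3 genes of most similar pattern (average log2 CPM at least 1, prior count 2). Of the genes this rule names, 2 are not reported here, and the lists are counted without them. Other genes are said to be named after their values were seen, or define a cell type.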

Additional observations from a re-analysis of the deposited data

Results flagged for a closer look

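The count table also holds construct sequences outside the gene comparison. The row for mCherry, a red fluorescent reporter, had 8 counts in knockout replicate 3, above the 3 counts that a count of 0 allows, with 1 count in knockout replicate 2 and 0 in the other 4 libraries.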

How the results depend on the processing

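Lpl, Fabp4 and Pparg kept their direction and stayed past the threshold in all 13 alternatives. The count of the 9 genes past the threshold went from 4 to between 3 and 5. Scaling to keratinocyte genes had the widest effect: it called 14651 genes in place of 5848 (320 higher and 14331 lower, or 2.18% and 97.8% of calls, against 43.1% and 56.9%), 0 of the 9 genes as higher and 5 as lower, and 101 pathway genes in place of 61. It reversed the log2 fold changes of 19 of the 49 single genes followed. The reversed values were Fabp5 -0.67, Plin2 -0.71, Slc27a4 -0.37, Cav1 -0.32, Sdc4 -0.39, Pnpla2 -0.38, Agpat2 -0.48, Klf5 -0.1, Srebf1 -0.25, Rxra -0.76, Adipor2 -0.3, Adipor1 -0.46, Cdh13 -0.05, Acadl -0.2, Eci1 -0.12, Acadm -0.62, Ly6a -0.31, Csf1r -0.39 and Krt8 -0.31. This scaling lowers all genes by a similar amount (median log2 fold change of all genes -1.25), so rises smaller than that shift turn by construction. No other alternative reversed a direction among these 49 genes. With no filter, 2 of the 9 genes were called as higher (Cd36 and Fabp5).

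With the replicate number as a block, 2 of the 9 genes were called as higher, Fabp5 among them (adjusted p = 0.0398), Rxra lost its call (adjusted p = 0.0618), and 5593 genes were called in all. The deviations of libraries with the same number had correlations of 0.0508, 0.0223 and -0.0399 across genes, so the numbers give no pairing. Leaving out 1 library gave 4230 to 5821 genes past the threshold, 1446 to 2599 higher and 2784 to 3256 lower, 3 to 4 of the 9 genes in all and 0 to 1 of them higher, and 48 to 67 pathway genes. The 1446 and 1610 higher genes were without knockout replicates 2 and 3. Depth limits Adipoq and Cfd in both groups and Pparg and Fabp4 with overexpression, where no library had more than 9 counts. Cd36 with knockout (7, 14 and 18 counts) and Plin1 with overexpression (9, 6 and 12 counts) were also low.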

Other observations

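Several low genes of the adipocyte marker list that failed the count filter were highest in knockout replicate 3. Car3, an adipose carbonic anhydrase, had 6, 8 and 90 counts with knockout and 0, 4 and 7 with overexpression, in replicate order. Slc36a2, an amino acid transporter of adipocytes, had 1, 21 and 55 counts and 0, 2 and 4 counts. Plin4, an adipocyte perilipin, had 10, 22 and 63 counts and 1, 1 and 2 counts. In the same libraries Lep had 0 counts and Cidec at most 1. Slc27a6, a fatty acid transport protein, is not in the adipocyte marker list and passed the filter. It had 18, 39 and 159 counts with knockout and 0 in each overexpression library. It was called as lower with overexpression (adjusted p = 0.00466, edgeR), by at least 20.3-fold by the limit of 3 counts. These genes were chosen after their values were seen.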
